A study of Mus musculus with 16 samples.

Results

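Libraries labelled striatum were compared with libraries labelled cortex from control mice at postnatal day 10 (P10). The libraries were chosen by their genotype label, Trrap Fl/+; Camk2-Cre tg, and make up 8 of the 16 RNA-seq libraries of the study. The 4 striatum libraries came from mice 58, 63, 64 and 65 and the 4 cortex libraries from mice 55, 58, 63 and 64, so that 3 mice gave both tissues. All mice were of the C57BL6/J-129sv background and 10 days old, and both sexes were present in each group, with 1 female among the striata and 2 among the cortices. Each control mouse carried 1 floxed and 1 wild-type Trrap allele together with the Camk2-Cre transgene, which the study used to reach pyramidal neurons of the forebrain. Mice without Cre were not among the controls, so neither group is wild type. The other 8 libraries came from Trrap-FBΔ mice, in which both Trrap alleles are floxed, and served below as the same regional contrast in other animals.

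The cortex is built mainly from glutamatergic projection neurons that arise in the pallium, the dorsal part of the embryonic telencephalon, and that are stacked in layers. The striatum arises from the ventral telencephalon, the subpallium, and consists mainly of GABAergic spiny projection neurons, which carry dopamine receptor D1 in the direct pathway and D2 in the indirect pathway. Its local circuit holds cholinergic interneurons, it is crossed by the myelinated fibres of the internal capsule, and it borders the septum, the pallidum and, more caudally, the thalamus and hypothalamus.

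Pallial markers were higher in the libraries labelled cortex, whereas the main striatal markers did not separate the libraries labelled striatum. The striatal markers were also present in the cortices. Values per library are given below in CPM, the read count scaled to the TMM-normalized library size, in the order of mice 55, 58, 63 and 64 for the cortex and of mice 58, 63, 64 and 65 for the striatum. Mef2c, a transcription factor that shapes synapse number in cortical projection neurons, stood at 1539, 1238, 1326 and 1373 in the cortex and at 247, 262, 316 and 195 in the striatum. The dopamine receptor gene Drd1 stood at 19.6, 37.0, 39.2 and 17.5 in the cortex and at 7.71, 28.3, 58.4 and 22.6 in the striatum. The cortex and striatum thus overlapped for the gene that should mark the striatum, and its log2 fold change of striatum over cortex was 0.05 ± 0.48 (SE), with an adjusted p of 0.952 by the quasi-likelihood test of edgeR. Adora2a, the adenosine receptor of the indirect pathway, stood at 11.5, 34.5, 38.7 and 11.4 in the cortex and at 5.98, 23.7, 63 and 18.9 in the striatum, and overlapped in the same way (0.21 ± 0.61, adjusted p = 0.815). Ppp1r1b, which encodes the dopamine-regulated phosphatase inhibitor DARPP-32, had a log2 fold change of 0.09 ± 0.67 (adjusted p = 0.928). None of Drd2 (0.76 ± 0.46, adjusted p = 0.219), Penk (0.79 ± 0.46, adjusted p = 0.2), which encodes enkephalin, and Rgs9 (0.42 ± 0.43, adjusted p = 0.472), a regulator of G protein signalling, passed the test either. Their intervals are wide, and these values do not show equal levels in the regions. Among the striata, mouse 64 had the highest level of all 6 of these genes and mouse 58 the lowest. Among the cortices, mice 58 and 63 stood above mice 55 and 64 for each of the 6. For Adora2a, the cortices of mice 58 and 63 stood above the striata of mice 58, 63 and 65. The pallial markers therefore do not show that the cortices held cortex alone. The groups are therefore called by their labels, and each direction given below is that of the libraries labelled striatum relative to those labelled cortex.

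Depth was similar between the groups, with 28743866 to 44708575 counted reads in the cortices and 31735896 to 43897446 in the striata, and no pair of libraries of a group agreed within sampling noise. Mitochondrial genes took 4.57 to 5.16% of the reads of the cortices and 5.66 to 7.24% of those of the striata. Of the striata, those of mice 58 and 65 stood apart from the others. Summed over 14 Hox genes, which are active in the hindbrain and spinal cord and silent in the forebrain, they held 393 and 115 reads, against 4 and 7 reads in the striata of mice 63 and 64 and 2 to 9 reads in the cortices. In Trrap-FBΔ mice, 2 of the 4 striata held 126 and 369 such reads and the other two held 2 each. Where leaving out the striatum of mouse 58, or those of mice 58 and 65, moved a list's count by over 1.5 times, the count without them stands beside it below. The share of other brain tissue in each library was not tested.

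**Figure D1:**
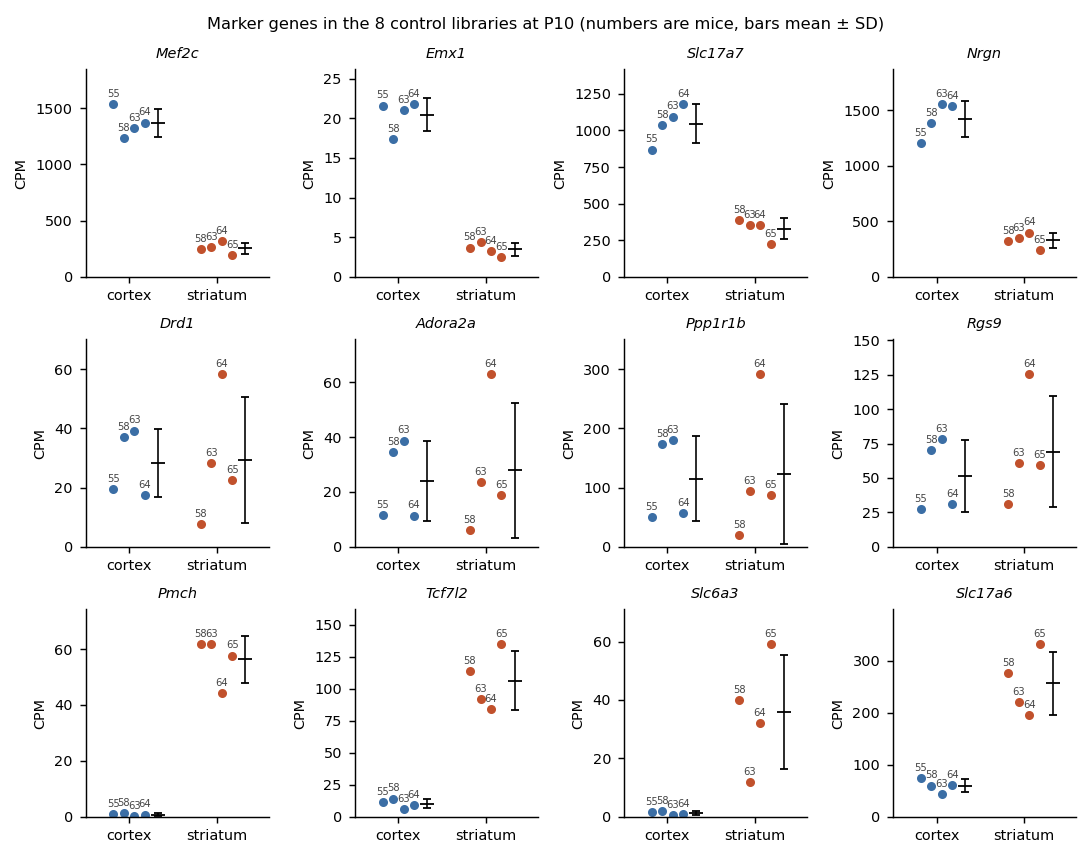
Level in CPM (vertical axis) of 12 marker genes in each control library, with the mouse number at each point and bars for the mean ± SD of 4 libraries. Mef2c, Emx1, Slc17a7 and Nrgn separate the cortices above the striata, Drd1, Adora2a, Ppp1r1b and Rgs9 overlap, and Pmch, Tcf7l2, Slc6a3 and Slc17a6 lie above every cortex in the striata.

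Of 53801 genes in the table, 18284 had enough reads to be tested. At an adjusted p under 0.05, 3710 genes (20.3% of those tested) were higher and 3670 genes (20.1%) were lower in the striatum, which together is 40.4%. These shares are the background for every list count below. A list near them in both directions shows nothing particular to its members. The groups did not overlap for 7109 genes (38.9%). Most differences were small, with a median absolute log2 fold change of 0.48 among the 7380 called genes and a median over all tested genes of 0.0086. The larger differences were mostly on the striatal side. At 2-fold or more, 958 genes were higher and 436 lower, at 4-fold or more 246 and 54, and at 8-fold or more 86 and 10. The first principal component of the 500 most variable genes took 70.5% of the variance and separated the tissues. The libraries come from separate mice in each tissue, so these p-values measure the spread between animals of a group. In whole tissue, fewer cells of a type and less RNA per cell cannot be told apart.

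The start regions of 4 genes are shown because they stand on opposite sides of this contrast. Pmch and Hcrt encode peptides of the lateral hypothalamus and were among the 10 genes with the highest fold changes, and Emx1 and Tbr1 encode transcription factors of the pallium and were lower in the striatum. The windows are 300 bases long, from 250 before to 50 after the RefSeq start, in build GRCm38.p6. They lie at chr10:88090822-88091121 (Pmch, plus strand), chr11:100762882-100763181 (Hcrt, minus strand), chr6:85187681-85187980 (Emx1, plus strand) and chr2:61804203-61804502 (Tbr1, plus strand). Capitals mark matches to any of 3 motifs on either strand. The first is GGGCGG, which zinc finger factors of promoters bind. The second is TATAAA, the element that places the start of transcription. The third is TAATTA, the core that many homeodomain factors bind. In Emx1, matches to GGGCGG overlap each other.
Pmch: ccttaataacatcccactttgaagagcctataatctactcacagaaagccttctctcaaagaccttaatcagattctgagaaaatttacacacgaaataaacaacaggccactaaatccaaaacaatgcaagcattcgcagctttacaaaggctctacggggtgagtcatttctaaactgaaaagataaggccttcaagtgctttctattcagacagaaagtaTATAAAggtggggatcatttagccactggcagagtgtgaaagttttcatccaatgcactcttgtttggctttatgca
Hcrt: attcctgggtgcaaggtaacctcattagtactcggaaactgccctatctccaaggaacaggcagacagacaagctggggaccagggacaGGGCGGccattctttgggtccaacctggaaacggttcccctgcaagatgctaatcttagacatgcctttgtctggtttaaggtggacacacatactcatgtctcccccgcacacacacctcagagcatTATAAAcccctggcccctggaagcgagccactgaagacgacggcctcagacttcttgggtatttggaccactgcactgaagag
Emx1: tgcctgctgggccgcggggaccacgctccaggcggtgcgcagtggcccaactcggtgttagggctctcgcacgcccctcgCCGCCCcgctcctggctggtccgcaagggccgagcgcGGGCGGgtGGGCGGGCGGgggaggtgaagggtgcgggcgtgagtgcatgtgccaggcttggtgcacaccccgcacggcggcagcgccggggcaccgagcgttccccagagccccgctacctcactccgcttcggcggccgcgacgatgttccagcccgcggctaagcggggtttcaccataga
Tbr1: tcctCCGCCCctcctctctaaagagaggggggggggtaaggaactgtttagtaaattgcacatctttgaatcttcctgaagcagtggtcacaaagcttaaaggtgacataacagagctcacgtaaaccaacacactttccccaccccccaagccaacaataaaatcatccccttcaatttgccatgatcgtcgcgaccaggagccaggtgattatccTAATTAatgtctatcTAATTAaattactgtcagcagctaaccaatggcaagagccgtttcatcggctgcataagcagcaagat
TATAAA stood in the windows of both peptide genes and in neither of the pallial ones, whereas GGGCGG stood in those of Hcrt, Emx1 and Tbr1. Of all 32851 windows in RefSeq, 35.7% held GGGCGG, 13.6% held TATAAA and 5.29% held TAATTA. For genes tested here these shares were 57.8%, 8.03% and 3.11%. For genes higher by 2-fold or more they were 40.8%, 12.2% and 4.77%, and for genes lower by 2-fold or more they were 45.7%, 16.2% and 6.07%. Among the 21 windows of hypothalamic hormone and peptide genes, 7 held TATAAA (33.3%), and among the 29 windows of pallial transcription factors 8 did (27.6%). Among the 28 windows of thalamic and prethalamic factors 7 did. These matches describe the letters only.

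Hypothalamic genes were among those with the highest fold changes. Pmch encodes melanin-concentrating hormone and stood at 61.9, 61.8, 44.1 and 57.7 CPM in the striata, against 0.893, 1.18, 0.101 and 0.776 in the cortices. All 4 striata were far above every cortex, and the log2 fold change was 6.25 ± 0.32 (adjusted p = 2.69e-06). Hcrt encodes the wakefulness peptide orexin and stood at 5.08, 4.73, 2.82 and 3.39 CPM in the striata, whereas each cortex held only 2 to 6 reads (5.28 ± 0.31). The pituitary hormone genes Oxt and Avp, for oxytocin and vasopressin, were higher by 5.06 ± 0.39 and 4.73 ± 0.48, and Trh, for thyrotropin-releasing hormone, by 2.31 ± 0.15. Gal, for galanin, was higher by 3.59 ± 0.23, and the RFamide gene Npvf by 4.36 ± 0.45. Of the 12 genes of the hypothalamic list 2 were not tested, the 10 others were higher, with a median of 4.74, and 3 of these held under 10 reads in every cortex and passed the filter through the striata alone. The list's summed level was 5.69 to 10.4 CPM in the cortices and 95.4 to 137 CPM in the striata. Without the striata of mice 58 and 65, 9 of the 10 were called. Where the cortices held only a few reads, as for Hcrt, Oxt, Npvf, Sim1 and Foxa1, the fitted fold change depends on the small count added before the log. In a wider list of hypothalamic hormones and peptides, chosen after values were seen, 14 of 20 tested genes were higher and 3 were lower, with 3 of the 20 under 10 reads in every cortex. The lower ones were Vip, Crh and Grp, which cortical interneurons or projection neurons also make.

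Transcription factors that pattern the hypothalamus and the structures behind it were higher as well. Otp and Sim1, which specify neuroendocrine neurons, were higher by 4.74 ± 0.45 and 3.96 ± 0.54. In a list of 27 hypothalamic transcription factors, chosen after values were seen, Dbx1, Nr5a1 and Rax had too few reads to be tested, 21 were higher, 1 was lower and 2 were not called. Of the tested ones, 7 held under 10 reads in every cortex, so they passed the filter through the striata alone and could hardly be called otherwise. This count is therefore a description of the list and supports no statement about it. For the diencephalon, Tcf7l2, the Wnt effector that defines thalamic neurons, stood at 114, 91.7, 84.3 and 135 CPM in the striata and at 11.6, 14.2, 6.02 and 9.01 in the cortices. No striatum came near the cortical range, and the log2 fold change was 3.38 ± 0.24 (adjusted p = 7.63e-06). Gbx2 (3.49 ± 0.30), Lhx9 (2.95 ± 0.27), Shox2 (4.59 ± 0.41) and Sox14 (4.88 ± 0.63), which mark thalamic or prethalamic domains, followed the same direction. Of the 12 genes of the thalamic list, 11 were higher, and its summed level was 252 to 350 CPM in the cortices and 808 to 1157 CPM in the striata. Of 25 thalamic and prethalamic transcription factors, also chosen after values were seen, 23 were tested, 20 were higher and 2, among them Lhx2, were lower.

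Genes of midbrain dopamine neurons were present in the striata with a wide spread. Slc6a3, the dopamine transporter, stood at 39.9, 12.0, 32.0 and 59.2 CPM in the striata and at 1.68, 1.94, 0.481 and 0.926 in the cortices (4.84 ± 0.52, adjusted p = 6.12e-05). The striatum of mouse 63 was the lowest of the 4 and was still above every cortex. Slc18a2, the vesicular monoamine transporter, was higher by 2.68 ± 0.29, and Ddc, which makes dopamine from L-DOPA, by 2.11 ± 0.29. Th, the rate-limiting enzyme of dopamine synthesis, stood at 20.7, 7.04, 17.8 and 24.6 CPM in the striata and at 1.54, 7.30, 1.75 and 1.45 in the cortices. Its groups overlapped through the cortex of mouse 58 and the striatum of mouse 63 (5.66-fold, adjusted p = 0.00383). The cell bodies of these neurons lie in the midbrain. The midbrain transcription factors Foxa1 (5.15 ± 0.69) and En1 (4.30 ± 0.71) were also called higher. Both were near the floor in the cortices, with 0 to 5 reads of Foxa1 and 3 to 12 of En1. Both passed the filter only through the striata and could hardly be called otherwise. The source of these reads was not tested. Chrna6, the nicotinic receptor subunit of dopamine neurons, was higher by 3.24 ± 0.46. In a list of 16 midbrain dopamine neuron genes, chosen after values were seen, 14 were tested, of which 2 held under 10 reads in every cortex, and 13 were higher and only Nr4a2 was lower, at -0.86, a gene that projection neurons of the deep cortex and claustrum also express. With the mouse as a fixed block, 11 of the 14 were higher.

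Genes of serotonin neurons, which lie in the raphe of the hindbrain, were highest in a single striatum. Slc6a4, the serotonin transporter, stood at 37.9 CPM in the striatum of mouse 58, at 0.901, 7.31 and 4.70 in the others, and at 0.801 to 1.45 in the cortices. Tph2, the neuronal enzyme of serotonin synthesis, stood at 28.2, 1.34, 6.26 and 4.35 CPM in the striata and at 2.18 to 2.70 in the cortices. Both genes overlapped between the groups, because the striatum of mouse 63 was within or below the cortical range. Tph2 was called at 2.01 ± 0.73 (adjusted p = 0.0493), but without the striatum of mouse 58 it was at 0.70 (adjusted p = 0.195), and the call was also lost with the mouse as a block, at 1.58 (adjusted p = 0.134) as a fixed term and 1.14 (adjusted p = 0.245) as a random one. Slc6a4 was at 3.49 ± 0.94 (adjusted p = 0.013), at 1.94 (adjusted p = 0.0188) without that striatum, at 1.87 (adjusted p = 0.0516) without those of mice 58 and 65, and at 2.34 (adjusted p = 0.127) with the mouse as a random block. The Hox reads were highest in the same library. Gata3, a factor of hindbrain and midbrain neurons, was also highest there, at 7.68 CPM, and lowest in the striatum of mouse 63, at 1.18. Gata3 was above every cortex in each striatum (4.70 ± 0.73). With 1 to 12 reads in the cortices, it passed the filter only through the striata and could hardly be called otherwise. Of 23 midbrain and hindbrain transcription factors, a list chosen after values were seen, 15 were tested, 11 were higher and 2, Egr2 and Otx1, were lower. Without the striata of mice 58 and 65, 8 were higher.

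Each member of the cholinergic list and of the septal and pallidal list was higher. Chat, which makes acetylcholine, stood at 4.06, 4.25, 7.31 and 5.77 CPM in the striata and at 0.786, 2.17, 1.70 and 0.726 in the cortices (1.96 ± 0.33, adjusted p = 0.000882). Slc5a7, which takes choline back into the terminal, was higher by 2.24 ± 0.26. Ngfr, a neurotrophin receptor gene of forebrain cholinergic neurons, was higher by 1.92 ± 0.16. All 12 genes of the cholinergic list were higher, with a median of 2.32, and so were all 11 genes of the septal and pallidal list, with a median of 2.12. Both share members with other lists, so these counts are not separate evidence for these cells. The largest value of the cholinergic list, 3.49, is also that of the thalamic list. That of the septal and pallidal list, 4.04, belongs to Dlk1 and is also that of the imprinted genes. The first list gave 100 to 124 CPM in the cortices and 281 to 321 CPM in the striata, and the second 49.8 to 92.7 and 218 to 263 CPM. The factors that specify these neurons differed between animals. Lhx8, a factor of basal forebrain cholinergic neurons, stood at 9.86, 10.1 and 7.08 CPM in the striata of mice 63, 64 and 65 but at 0.991 in that of mouse 58, which was within the cortical range of 0.45 to 2 CPM. Its log2 fold change was 2.76 ± 0.63 (adjusted p = 0.00543), 3.11 without that striatum, and 2.33 (adjusted p = 0.083) with the mouse as a fixed block, where the call was lost. Gbx1 had the same order, with 0.558 CPM in the striatum of mouse 58 and 2.84 to 4.13 in the others. Nkx2-1, the determinant of the medial ganglionic eminence, was above every cortex in all striata (2.39 ± 0.24), and Zic1, a factor of septal and thalamic neurons, likewise (2.12 ± 0.21).

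**Figure D2:**
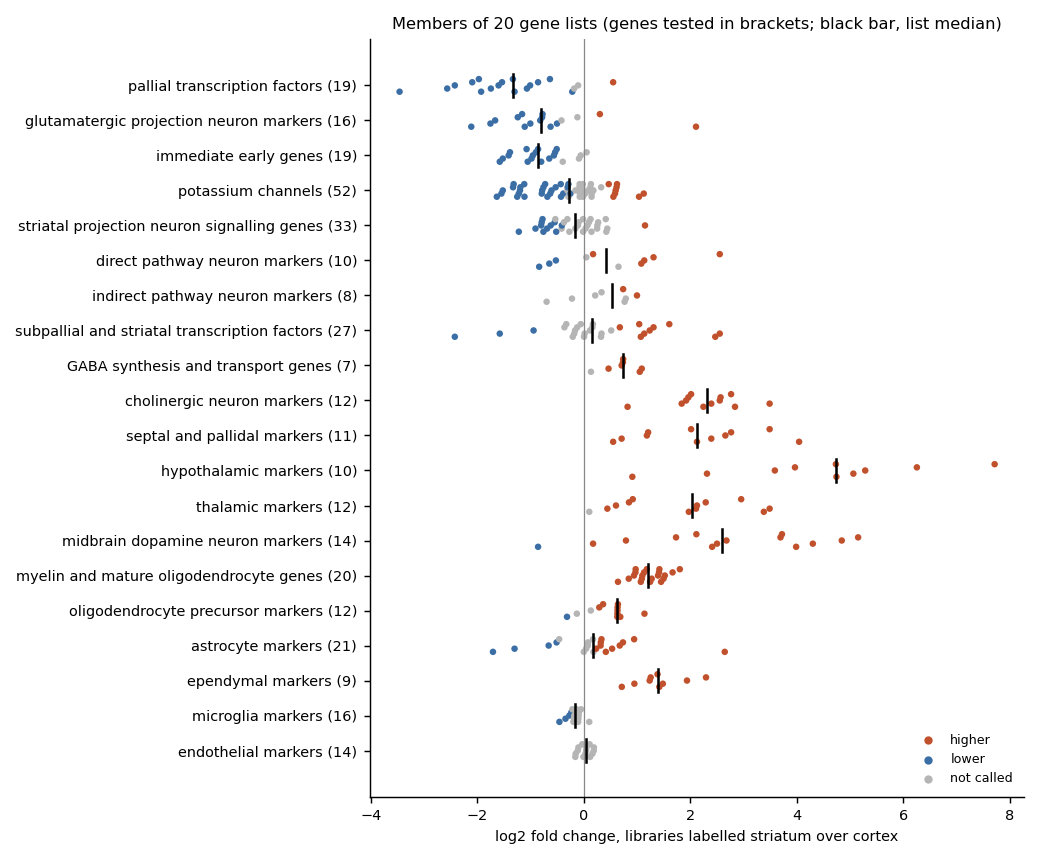
Log2 fold change of striatum over cortex (horizontal axis) for each tested gene of 20 lists, with red points for genes called higher, blue for lower, grey for those not called and a black bar for the list median. The hypothalamic list lies farthest to the right, with a median of 4.74, the pallial factors farthest to the left, with a median of -1.33, and the 3 lists of spiny projection neurons have medians between -0.16 and 0.53.

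Genes of GABA neurons were higher by a moderate amount. Gad2, which makes GABA at the synapse, stood at 359, 395, 449 and 451 CPM in the striata and at 173, 238, 204 and 185 in the cortices. Each striatum was above every cortex (1.05 ± 0.11, adjusted p = 4.45e-05). Gad1 was higher by 0.74 ± 0.13 and Slc32a1, which loads GABA into vesicles, by 0.73 ± 0.13. The transporter gene Slc6a11, which astrocytes use to clear GABA, was higher by 1.09 ± 0.14. Of the 7 genes of this list, 6 were higher and 1 was not called.

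Within the striatal lists, genes were called in both directions, as were all tested genes (20.3% higher and 20.1% lower). Isl1, a factor of direct pathway and cholinergic neurons, stood at 10.4, 18.2, 20.8 and 18.6 CPM in the striata and at 2.04, 5.14, 3.19 and 1.08 in the cortices (2.55 ± 0.37, adjusted p = 0.00039). Six3, a factor of the ventral forebrain that indirect pathway neurons need, was higher by 2.47 ± 0.35, and Foxp2, a factor of spiny projection neurons and of deep cortical layers, by 1.07 ± 0.22. Tac1, the substance P gene of the direct pathway, was higher by 1.08 ± 0.22. The 27 subpallial and striatal factors split into 9 higher, 3 lower and 15 not called, the last including Dlx1, Dlx2, Dlx5 and Dlx6. Of the 10 direct pathway genes, 5 were higher and 3, Pdyn, Chrm4 and Eya1, were lower. With the mouse as a fixed block, and likewise without the striata of mice 58 and 65, 1 was lower. Of 8 tested indirect pathway genes, Plxdc1 and Ttc12 were higher and none was lower, while with the mouse as a random block 2 were higher and 2 lower. Ankk1 and Gpr52 of this list were not tested. Of the 33 signalling genes, which include phosphodiesterases, kinases and G protein genes enriched in these neurons, only Id4 was higher, 11 were lower and 21 were not called, with a median of -0.16, and without the striatum of mouse 58 2 were higher. Their summed level ranged from 3365 to 6405 CPM in the striata and from 4926 to 6661 CPM in the cortices, with the striatum of mouse 58 the lowest library and that of mouse 64 the highest striatum. The striosome and matrix markers gave 5 higher and 6 lower of 16.

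The mice with both tissues split in the same genes. Within mouse 58, Drd1, Adora2a, Ppp1r1b and Rgs9 were lower in the striatum, with log2 differences of -2.25, -2.52, -3.18 and -1.18. Within mouse 64 the same 4 genes were higher, by 1.74, 2.47, 2.37 and 2.03, and mouse 63 lay between, at -0.47, -0.71, -0.94 and -0.36. Mef2c, Slc17a6 and Pmch each had 1 sign in all 3 mice. Mef2c was at -2.32, -2.34 and -2.12 within mice 58, 63 and 64, Slc17a6 at 2.21, 2.35 and 1.68, and Pmch at 5.66, 8.66 and 5.74. Of the genes called higher, 3593 of 3710 were positive within all 3 mice, and of those called lower, 3630 of 3670 were negative. The calls were made mostly from the libraries of these same mice. This agreement is therefore largely built in and is no separate support. Without the striatum of mouse 64 the log2 fold change of Drd1 was -0.53 (adjusted p = 0.352), and without the striata of mice 58 and 65 it was 0.61 (adjusted p = 0.252).

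**Figure D3:**
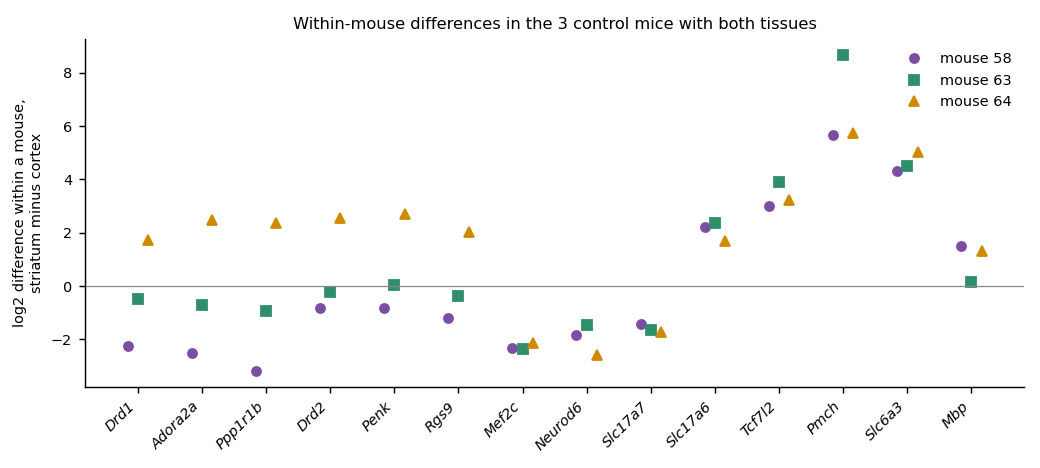
Log2 difference of striatum minus cortex within each mouse (vertical axis) for 14 genes in mice 58, 63 and 64. The spiny projection neuron genes on the left change sign between mice 58 and 64 (Ppp1r1b from -3.18 to 2.37), whereas Mef2c, Neurod6 and Slc17a7 are below 0 and Slc17a6, Tcf7l2, Pmch, Slc6a3 and Mbp above 0 in all 3 mice.

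On the cortical side, transcription factors of pallial neurons were lower in the striatum. Emx1, which marks the pallial lineage, stood at 21.6, 17.4, 21.0 and 21.8 CPM in the cortices and at 3.69, 4.36, 3.28 and 2.48 in the striata (-2.57 ± 0.15). Mef2c, with the values given above, was at -2.42 ± 0.14 (adjusted p = 3.53e-06). Neither gene overlapped between the groups. Tbr1 and Fezf2, which set the identity of deep layer neurons, were at -1.93 ± 0.16 and -1.97 ± 0.18. The bHLH factors Neurod6 and Neurod2 of postmitotic projection neurons were at -2.10 ± 0.30 and -1.75 ± 0.18. Of the 19 pallial factors 16 were lower and only Pax6 was higher, with a median of -1.33, and their summed level was 2806 to 3335 CPM in the cortices and 733 to 1015 CPM in the striata. The striata thus kept a measurable level of pallial genes, and Neurod6 ranged there from 19.6 CPM in mouse 65 to 66.9 in mouse 63.

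Layer markers followed in part. Cux2 (-1.01 ± 0.09) of the upper layers and Rorb (-0.88 ± 0.10) of layer 4 were lower, as were the subplate genes Cplx3 (-1.95 ± 0.13), a complexin, and Ccn2 (-1.22 ± 0.10), a secreted matrix protein. Of the 15 upper layer markers 9 were lower and 3 higher, and of the 20 deep layer and subplate markers 13 were lower and 2, Foxp2 and Nxph4, were higher. Nxph4, a secreted neurexin ligand, was at 1.58 ± 0.30, and its highest level was in the striatum of mouse 58, at 14.2 CPM against 5.01 to 9.03 in the others. Met, a receptor tyrosine kinase of developing cortical axons, was at -2.05 ± 0.15. Satb1 (-1.49 ± 0.08), a chromatin organiser, and Lhx2 (-1.30 ± 0.12), a selector of cortical identity, were lower too.

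Levels of the vesicular glutamate transporter genes differed between the regions. Slc17a7 (VGLUT1), the form of cortical projection neurons, stood at 870, 1039, 1095 and 1181 CPM in the cortices and at 388, 353, 355 and 222 in the striata (-1.67 ± 0.16, adjusted p = 3.27e-05). Slc17a6 (VGLUT2), the form of thalamic, hypothalamic and brainstem neurons, stood at 74.2, 59.8, 43.1 and 61.3 CPM in the cortices and at 276, 221, 196 and 332 in the striata (2.11 ± 0.19, adjusted p = 1.99e-05). Neither gene overlapped between the groups, and the directions were opposite. Per kilobase of exon, the mean levels were 194 RPKM for Slc17a7 and 11.0 for Slc17a6 in the cortex, against 61.1 and 47.4 in the striatum. The synaptic zinc transporter Slc30a3 followed Slc17a7 (-1.76 ± 0.11). Of 16 glutamatergic projection neuron markers, 12 were lower and 2 were higher, or 1 higher without the striatum of mouse 58 and 1 with the mouse as a block.

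Genes of postsynaptic calcium signalling were among those with the largest drops in level. Nrgn, which binds calmodulin in dendrites, stood at 1207, 1385, 1558 and 1535 CPM in the cortices and at 321, 352, 399 and 240 in the striata (-2.12 ± 0.15). Adcy1, a calcium-stimulated adenylyl cyclase, was at -1.49 ± 0.12 and Camk2a, the calcium/calmodulin kinase of excitatory synapses, at -1.16 ± 0.16. The microtubule-associated kinase gene Dclk1 (-0.90 ± 0.09) and Syt1 (-0.68 ± 0.07), the calcium sensor of vesicle release, were lower as well. Camk2a regulatory sequence is also the driver of the Cre transgene that all these mice carried. In the other direction, Hap1, which encodes a huntingtin-associated transport protein that is rich in hypothalamus, was at 605, 467, 509 and 643 CPM in the striata and at 128, 146, 71.9 and 120 in the cortices (2.26 ± 0.20).

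Activity-regulated genes were lower in the striatum. Of 19 immediate early genes 15 were lower and none was higher, with a median of -0.86, and their summed level was 710 to 860 CPM in the cortices and 387 to 462 CPM in the striata. Egr1 stood at 96.6, 143, 105 and 109 CPM in the cortices and at 42.4, 32.8, 57.4 and 41.1 in the striata (-1.39 ± 0.16, adjusted p = 0.000106). Egr3 (-1.58 ± 0.18), Nr4a1 (-1.06 ± 0.08), the scaffold gene Homer1 (-0.96 ± 0.11) and Arc (-0.65 ± 0.10), which removes AMPA receptors from synapses, did not overlap between the groups either. Fos, Jun, Btg2 and Bdnf did not pass the test.

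**Figure D4:**
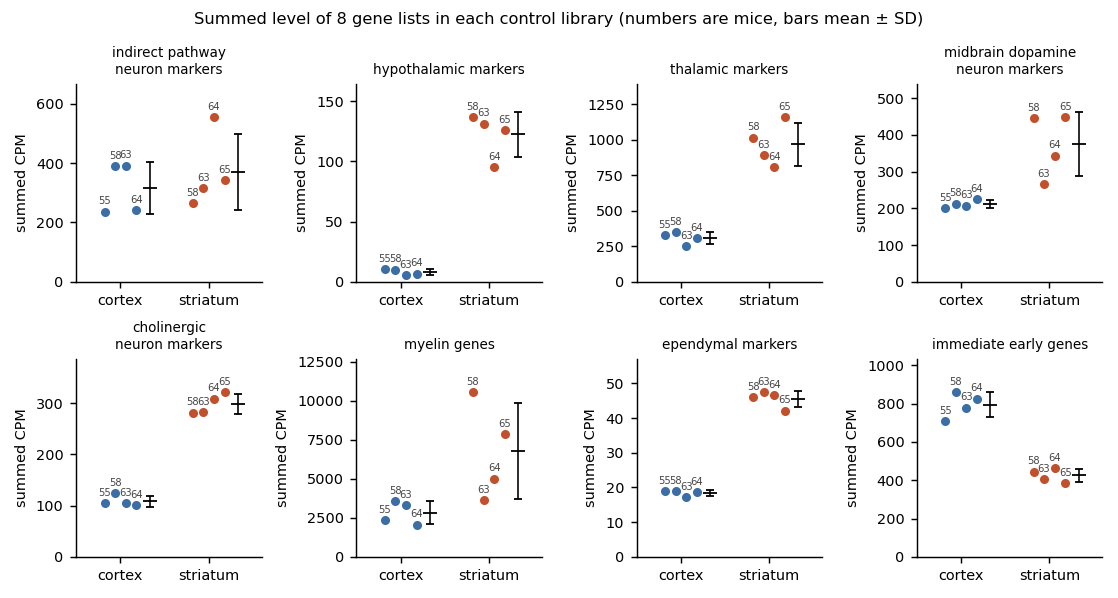
Summed CPM (vertical axis) of 8 gene lists in each control library, with the mouse number at each point and bars for the mean ± SD of 4 libraries. Hypothalamic markers run from 5.69 to 10.4 in the cortices and from 95.4 to 137 in the striata, and the myelin list is highest in the striata of mice 58 and 65.

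Ion channels and receptors were divided by subunit. Of 52 potassium channel genes 25 were lower and 8 higher, and of 33 calcium, sodium and HCN channel genes 18 were lower and 8 higher, or 17 and 5 without the striatum of mouse 58 and likewise with the fixed block. The silent subunit gene Kcnv1 (-1.55 ± 0.16) and the ERG-type channel Kcnh7 (-1.33 ± 0.08) were lower, whereas the related Kcnh2 was higher (1.12 ± 0.15). Among 25 glutamate receptor subunits, 10 were higher and 9 lower, with 6 higher without the striata of mice 58 and 65. The NMDA receptor subunit genes Grin2a (-0.96 ± 0.08) and Grin2b (-0.84 ± 0.07) were lower and the AMPA receptor subunit Gria4 was higher (0.61 ± 0.08). Grm2, a presynaptic metabotropic receptor, was at -1.05 ± 0.13. Among 17 GABA receptor subunits, 3 were higher and 5 lower. The 3 were Gabre (3.91 ± 0.30), Gabrq (2.34 ± 0.22) and Gabrg1 (1.37 ± 0.10), subunits that are typical of hypothalamus and brainstem, and among the 5 was Gabrd (-1.29 ± 0.25), the subunit of extrasynaptic receptors in forebrain.

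Receptors for modulatory transmitters and signalling families were called in both directions, as were all tested genes (20.3% higher and 20.1% lower). The phosphodiesterases and the serotonin, adenosine and adrenergic receptors below were near these shares. The muscarinic receptor Chrm1 of cortical and striatal neurons stood at 134, 150, 150 and 159 CPM in the cortices and at 54.0, 59.9, 72.9 and 43.3 in the striata (-1.37 ± 0.13). Of 14 acetylcholine receptor genes, 8 were higher and 4 lower, with 2 lower without the striatum of mouse 58 and likewise with the mouse as a fixed block. The serotonin receptor Htr2c was at 55.2, 62.9, 43.2 and 49.8 CPM in the cortices and at 171, 149, 177 and 213 in the striata (1.75 ± 0.13), and Adora1, the widespread inhibitory adenosine receptor, was lower (-0.74 ± 0.07). The 23 serotonin, adenosine and adrenergic receptor genes gave 6 higher and 6 lower. The prolactin receptor gene Prlr was higher by 2.75 ± 0.27, and the insulin receptor substrate gene Irs4, which is rich in hypothalamus, by 3.85 ± 0.31. Among signalling families, the 9 adenylyl cyclases gave 1 higher and 4 lower, the 18 phosphodiesterases 4 and 4, the 18 RGS proteins 6 and 8, and the 27 G protein subunits 6 and 13, or 2 and 10 without the striatum of mouse 58, 1 and 9 without those of mice 58 and 65, and 3 and 11 with the fixed block. Without the striata of mice 58 and 65, no adenylyl cyclase was higher and 5 RGS genes were lower.

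Axon guidance genes were called in both directions, beside 20.3% higher and 20.1% lower over all tested genes. Robo3, a Slit receptor relative, stood at 59, 82.5, 82.8 and 83.6 CPM in the cortices and at 11.5, 22.9, 16.1 and 10.2 in the striata (-2.34 ± 0.23). The GPI-linked semaphorin Sema7a was at -1.53 ± 0.09, and the Eph receptors Ephb6 and Epha4 at -1.74 ± 0.08 and -1.29 ± 0.08. Ntng1, the netrin-G ligand of thalamocortical axons, was higher by 1.55 ± 0.19. Of 20 Eph receptors and ephrins 10 were lower and 2 higher, of 29 semaphorins, plexins and neuropilins 11 and 9, of 19 netrin, Slit and Robo genes 6 and 5, and of 16 cadherins 6 and 6. Without the striata of mice 58 and 65, 5 semaphorin group genes and 3 netrin, Slit and Robo genes were higher. Of 25 Wnt and Fgf ligands 11 were higher and 8 lower. Wnt3 was higher by 1.89 ± 0.21 and Fgf17 by 1.72 ± 0.22, while Wnt9a was lower (-1.69 ± 0.08).

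Interneuron markers did not move together. Vip, the peptide of bipolar cortical interneurons, stood at 28.6, 27.4, 31.3 and 28.4 CPM in the cortices and at 8.49, 9.56, 6.67 and 5.86 in the striata (-1.92 ± 0.14). Cck, for cholecystokinin, was also lower (-1.19 ± 0.18). Pvalb, the calcium buffer of fast-spiking neurons, was higher, at 21.0, 16.8, 16.7 and 19.4 CPM in the striata against 2.93 to 4.85 in the cortices (2.15 ± 0.14), and the calcium-binding protein gene Calb2 was higher by 2.29 ± 0.23. Pvalb and Calb2 are also made by neurons outside the telencephalon. The 16 markers of interneurons from the medial ganglionic eminence gave 6 higher and 4 lower, with 4 higher without the striata of mice 58 and 65, and the 15 from the caudal eminence 3 and 7. Of 25 tested neuropeptides 9 were higher and 8 lower, among them Nts, for neurotensin, which was higher by 1.34 ± 0.14.

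Myelin genes were higher in the striata, with the highest levels in mice 58 and 65. Mbp, a main protein of compact myelin, stood at 4686, 1691, 2312 and 3466 CPM in the striata of mice 58, 63, 64 and 65 and at 1056, 1644, 1513 and 918 in the cortices. The striatum of mouse 63 was only slightly above the highest cortex, and the log2 fold change was 1.24 ± 0.30 (adjusted p = 0.00703). Mal, a membrane protein of myelin, was at 1.67 ± 0.42 (adjusted p = 0.00998), and its groups overlapped. All 20 myelin genes were called higher, with a median of 1.21. Of these, 16 were called without the striatum of mouse 58 and 7 without those of mice 58 and 65, where Mbp was at 0.64 (adjusted p = 0.0701) and Mal at 0.61 (adjusted p = 0.11). With the mouse as a block, 18 were called as a random and 16 as a fixed term. Precursor genes showed a smaller difference. Of 12 oligodendrocyte precursor markers 9 were higher, with a median of 0.63, among them Olig2 (0.63 ± 0.08) and Pdgfra (0.36 ± 0.06), the receptor that marks precursors. Neither of these overlapped between the groups.

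Astrocyte genes differed by member. Agt, which encodes angiotensinogen, stood at 67.0, 50.7, 48.6 and 67.4 CPM in the striata and at 10.9, 10.4, 7.72 and 8.43 in the cortices (2.65 ± 0.15), and S100b was higher by 0.94 ± 0.10. Slc1a2, the main glutamate transporter of astrocytes, stood at 3207, 3390, 3586 and 3286 CPM in the cortices and at 2198, 1993, 2189 and 2133 in the striata (-0.66 ± 0.07). Thbs4, a secreted synaptogenic protein, was also lower (-1.71 ± 0.18). Of 21 astrocyte markers 10 were higher and 4 lower. The groups did not overlap for Agt, S100b, Slc1a2 or Thbs4.

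Ependymal cells line the ventricles, and all 9 tested ependymal genes were higher, with a median of 1.38. Their summed level was 17.1 to 19 CPM in the cortices and 42.1 to 47.4 CPM in the striata. Foxj1, the regulator of motile cilia, stood at 13.8, 12.4, 13.9 and 12.2 CPM in the striata and at 5.61, 5.88, 4.71 and 5.98 in the cortices (1.24 ± 0.09, adjusted p = 9.42e-06). Ttr, the transthyretin of the choroid plexus, ranged from 144 to 454 CPM in the cortices and from 102 to 517 CPM in the striata and did not pass the test (0.22 ± 0.44, adjusted p = 0.735). Of 11 choroid plexus markers 4 were higher, including Prlr and Otx2, which neurons of the hypothalamus and midbrain also express. Of 16 microglial markers 4 were lower, by small amounts, such as Tmem119 (-0.46 ± 0.09) and P2ry12 (-0.35 ± 0.08), and none was higher. Without the striatum of mouse 58, and likewise with the fixed block, 2 were called, and without those of mice 58 and 65 1 was called, with P2ry12 at -0.25 (adjusted p = 0.0752). None of 14 endothelial and 5 blood markers was called by edgeR, with 2 and 0 at an unadjusted p under 0.05, and with the mouse as a random block in limma-voom 1 endothelial gene was higher and 1 lower. Of 11 mural cell markers 5 were higher, or 2 without the striatum of mouse 58 and 3 with the mouse as a fixed block. Of 14 meningeal fibroblast markers 3 were higher and 1 lower, with 6 higher under the fixed block. Of 15 reference genes 12 were not called, while Actb (-0.40 ± 0.08) and Ywhaz (-0.46 ± 0.06) were lower. Trrap itself, with 1 floxed allele in each mouse, did not pass the test between the regions, at 149 ± 15.5 CPM in the cortex and 142 ± 6.4 in the striatum (SD, n = 4 each, log2 fold change -0.07 ± 0.07, adjusted p = 0.509).

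The same regional contrast was examined in Trrap-FBΔ mice, which share no library with the controls. There 10329 of 18872 tested genes passed the test (54.7%). Of the genes called in controls, 7353 were tested there, 7245 (98.5%) had the same sign, 6430 (87.4%) were called in the same direction, and 13 were called in the opposite one. Of the control calls of 2-fold or more, 1321 of 1373 were called in the same direction. Pmch was at 6.83 and Slc6a3 at 5.14 in these mice, and Emx1 was at -3.23. Of the 6 striatal markers, Drd1 (-0.35 ± 0.15, adjusted p = 0.076), Adora2a (-0.06 ± 0.25, adjusted p = 0.861) and Ppp1r1b (-0.08 ± 0.21, adjusted p = 0.758) did not pass the edgeR test there either. Drd2 (0.89 ± 0.16, adjusted p = 0.000467), Penk (0.67 ± 0.16, adjusted p = 0.00371) and Rgs9 (0.46 ± 0.12, adjusted p = 0.00804) were higher in the Trrap-FBΔ striata, while in controls they did not pass the test, at 0.76, 0.79 and 0.42. The difference between the genotypes did not pass the test for Drd2, Penk or Rgs9 (adjusted p = 0.954, 0.964 and 0.990). A test of the difference between genotypes called 52 of the control genes, with 1234 at an unadjusted p under 0.05. The clearest was Rxfp2, a relaxin family receptor, which was at -1.15 in controls and 0.56 in Trrap-FBΔ mice (interaction adjusted p = 0.000243). Gfod1 (-0.78 and -1.24), Dusp6 (-0.81 and -1.41), a phosphatase of the ERK pathway, and Hapln1 (-0.33 and -0.98), a matrix link protein, were lower by more in Trrap-FBΔ mice, whereas Col5a1 (-1.14 and -0.32), a fibrillar collagen, was lower by less. The interaction adjusted p of each of these 4 genes was 0.0112.

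**Figure D5:**
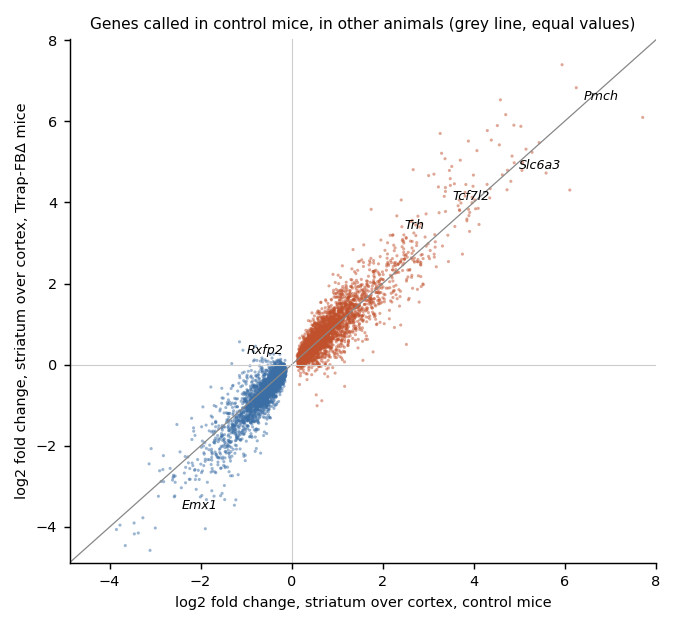
Log2 fold change of striatum over cortex for each gene called in controls, in control mice (horizontal axis) and in Trrap-FBΔ mice (vertical axis), with red points for genes higher and blue for genes lower in control striatum and a grey line for equal values. Pmch (6.25 and 6.83) and Emx1 (-2.57 and -3.23) lie toward the ends, and Rxfp2 (-1.15 and 0.56) has opposite signs.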

How the data were processed

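RNA was measured in cortex and striatum by single-end sequencing of stranded mRNA libraries. The authors aligned reads to GRCm38 and counted uniquely mapped reads per Ensembl gene on the sense strand, and the deposited values are these raw counts, with no filter or normalization. The submitters' processing notes name bcl2fastq 1.8.4, STAR 2.5.4b and featureCounts 1.5.0. The dissection is not given in the sources used here. Group, mouse and tissue were taken from the sample labels.

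The study tested genotypes within a tissue and not the tissues against each other. Here counts of the 8 control libraries were filtered (filterByExpr), TMM-normalized and compared by quasi-likelihood F-tests (edgeR 4.0.16, R 4.3.3), and p-values were adjusted by Benjamini-Hochberg over 18284 genes, with a threshold of 0.05. CPM use TMM library sizes, and RPKM divide them by exon length. The steps were checked on simulated counts. Depth was 28743866 to 44708575 reads per library, which limits the precision of genes with few reads. Mice 58, 63 and 64 gave both tissues, so their libraries are paired by design. Deviations from the group mean correlated at 0.091 to 0.267 within a mouse (3 pairs) and at -0.217 to 0.136 between mice (13 pairs), and the mouse was used as a block in alternatives. Other alternatives were DESeq2 1.42.0, limma-voom (limma 3.58.1), other scalings, filters and subsets of libraries.

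Genes named in the text are those with the 12 largest and 12 smallest log2 fold changes among calls without overlap at a mean of at least 10 CPM, those with the 10 largest differences in mean CPM in each direction, members of fixed lists and the 5 with the smallest interaction p among calls. Not all genes that the rule admits are described, and those shown with values were picked from it for their roles. Lists are described by counts and medians and were not tested. The comparison and the lists were chosen with earlier results of these data known, and 8 lists (dopamine and serotonin neurons, hypothalamic, thalamic and midbrain transcription factors, cerebellum, hypothalamic peptides and imprinted genes) were added after values were seen, as was the run without the striata of mice 58 and 65. Promoter windows were taken from RefSeq (GRCm38.p6) by symbol. Genes with near-identical copies lose reads in unique mapping, so their levels are uncertain. Some genes are not reported here.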

Additional observations from a re-analysis of the deposited data

Results flagged for a closer look

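In 298 groups of 4 libraries, 12 held a library whose gap to the nearest other, as a share of the whole range, passed Dixon's critical value, which is 4.03% of the groups, and chance alone gives about 1 in 20. In the cortices, mouse 58 was the highest for Peg10 (62.7 against 33.8 to 34.9 CPM, gap 0.961), Th (7.30 against 1.45 to 1.75, gap 0.95), Ecel1 (9.59 against 4.30 to 4.97, gap 0.874) and Nr4a1 (45.1 against 40.6 to 41.3, gap 0.835). The cortex of mouse 55 was the lowest for Robo3 (59 against 82.5 to 83.6 CPM, gap 0.956) and the highest for Rspo1 (3.11 against 2.18 to 2.28, gap 0.892), and that of mouse 63 was the highest for Cplx3 (32.8 against 23.9 to 24.8, gap 0.899). In the striata, mouse 64 was the highest for Thbs4 (gap 0.914) and for Dclk1 (gap 0.883), mouse 65 the lowest for Nr4a1 (gap 0.891) and Adora1 (gap 0.838), and mouse 58 the lowest for Nkx2-1 (6.72 against 8.70 to 9.01 CPM, gap 0.864).

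The regional difference differed between control and Trrap-FBΔ mice, by the interaction test of edgeR over 16 libraries, for 9 of the named genes. Of these, Rxfp2, Col5a1, Dusp6, Gfod1 and Hapln1 were named because they had the smallest interaction p among calls. Their place in this count was fixed by that rule, so the count does not show how common such differences are. Over all 7380 genes called in controls, the same test called 52. Rxfp2 had an adjusted p of 0.000243. The adjusted p was 0.0112 for Col5a1, Dusp6, Gfod1, Hapln1 and Trh, where Trh was at 2.31 in controls and 3.67 in Trrap-FBΔ mice. It was 0.0226 for Cdh24 (0.93 and 1.66), 0.0227 for Cplx3 (-1.95 and -1.04) and 0.042 for Kcnv1 (-1.55 and -2.55).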

How the results depend on the processing

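The 3710 higher and 3670 lower genes stayed within 1.5 times of these counts under all alternatives but 2. Tested against a fold change of 1.5, 791 genes were higher and 516 lower, and without the striata of mice 58 and 65, a choice made after seeing the data, 2433 were higher and 2740 lower, of which 2312 and 2601 were also called in that direction with all libraries. The striatum of mouse 65 gave the smallest counts when left out alone. Leaving out 1 library gave 2989 to 3825 higher and 3055 to 3766 lower genes. With the mouse as a replicate block, 3135 and 3293 genes were called as a fixed term in edgeR and 4158 and 4106 as a random one in limma-voom, where the consensus correlation was 0.248. Upper-quartile scaling gave 4451 higher and 2974 lower genes. DESeq2 called 3632 higher and 3791 lower. Of 3176 values of the 145 named genes under 22 alternatives, 3105 kept direction and call, 50 lost the call and 21 reversed. The reversed ones were all of genes that did not pass the test. Drd1 was at -0.18 under limma-voom, -0.20 with the random and -0.28 with the fixed block, Adora2a at -0.013, -0.056 and -0.25, and Ppp1r1b at -0.24, -0.30 and -0.63. Leaving out 1 library, these genes ranged from -0.53 to 0.36, from -0.57 to 0.54 and from -0.79 to 0.45, with Drd1 at -0.095, Adora2a at -0.015 and Ppp1r1b at -0.15 without the cortex of mouse 55, and at -0.13, -0.024 and -0.13 without that of mouse 64. Without the striatum of mouse 64, Rgs9 was at -0.035 and Ttr at -0.10, against ranges of up to 0.69 and 0.55 without other libraries. Trrap was at 0.014 with the fixed block. The cause was not tested. The replicate block changed the calls of Lhx8, Meg3, Slc6a4 and Tph2 among the named genes. List members changed too. With the fixed block 1 direct pathway gene was lower, against 3 (Pdyn, Chrm4 and Eya1) in the main fit.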

Other observations

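Imprinted genes, which are read from the copy of 1 parent, were mostly higher in the striata. The list was chosen after values were seen. Of 35 tested imprinted genes, 25 were higher and 2, Begain and Kcnk9, were lower, with a median of 0.55, and without the striata of mice 58 and 65 the counts were 21 and 2. Nap1l5, a nucleosome assembly protein, stood at 841, 656, 576 and 901 CPM in the striata and at 240, 244, 239 and 242 in the cortices (1.62 ± 0.13, adjusted p = 1.09e-05 by edgeR). Dlk1, a secreted Notch ligand relative, was higher by 4.04 ± 0.45, Peg10 by 2.40 ± 0.19 and the Prader-Willi region gene Magel2 by 1.85 ± 0.14. The calcitonin receptor gene Calcr (4.02 ± 0.45) and its neighbour gene in the imprinted cluster, Asb4 (3.43 ± 0.25), were higher, and so was Zdbf2 (1.59 ± 0.07). The long noncoding RNA Meg3 was higher by only 0.29 ± 0.08 (adjusted p = 0.018), and the call was lost with the mouse as a fixed block, at 0.27 (adjusted p = 0.113), and without the striata of mice 58 and 65, at 0.24 (adjusted p = 0.176). Several of these genes are rich in hypothalamus, and the summed level of the hypothalamic markers was also higher in the striata. Whether the 2 sets vary together between libraries, and what part hypothalamic cells have in the result, was not tested.

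Of 9 tested cerebellar markers, a list also chosen after values were seen, 3 were higher and 1 was lower, with a median of 0.10. Over all tested genes 20.3% were higher and 20.1% lower, and the small lists here are to be read beside these shares. Of 8 tested serotonin neuron markers 6 were higher, or 4 without the striata of mice 58 and 65 and 4 with the mouse as a random block. Of 14 proliferation markers 4 were higher, or 2 without the striatum of mouse 58 and 2 with the mouse as a fixed block, and with a random block 1 was lower. Of 14 neuroblast and subventricular zone markers 4 were lower and 1 was higher, or 2 higher with the fixed block. Of 8 Cajal-Retzius markers 5 were higher and Reln was lower, and 3 of the 5, Lhx1, Lhx5 and Ebf3, are also transcription factors of the diencephalon or midbrain. Of 10 hippocampal markers 3 were lower and 1 was higher, or 2 higher without the striatum of mouse 58, and 5 lower and 2 higher with the random block. Of 18 tested genes of the retinoic acid pathway 6 were higher and 4 lower.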
